A study of Mus musculus with 12 samples.

Results

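The genes described here are 10 genes of MHC class II antigen presentation, chosen by name from the 25700 genes of a count table of liver macrophage RNA: H2-Aa, H2-Ab1, H2-Eb1, H2-Eb2, Cd74, Ciita, H2-DMa, H2-DMb1, H2-Oa and H2-Ob. All 10 were in the table and all 10 passed the filter on low counts, which left 13844 genes for testing. Liver cells outside the hepatocyte fraction were enriched with magnetic beads that bind F4/80, a surface protein of mouse macrophages, and their RNA was sequenced in bulk. The 12 libraries formed 4 groups of 3: sph/sph mice given agonistic anti-CD40, WT mice given agonistic anti-CD40, sph/sph mice given saline, and WT mice given saline. The labels give the genotypes as Spta sph/sph and Spta wt/wt, the sex of all mice as male and their age as 8 to 10 weeks. The antibody was injected into the peritoneum at 20 mg/kg and cells were collected 30 h later. Mice of the sph/sph genotype carry a mutation of alpha-spectrin, a protein of the red cell skeleton, in every cell, and are anaemic because their red cells break easily. The series asks how the uptake of red cells by liver macrophages bears on their inflammatory state.

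MHC class II molecules are pairs of an alpha and a beta chain that carry peptides from ingested proteins to the surface, where CD4+ T cells read them. The pairs are built with the invariant chain (Cd74), which blocks the groove until proteases of the endosome cut it, and the H2-DM pair then exchanges the remaining fragment for a peptide, while the H2-O pair restrains H2-DM. CIITA, the product of Ciita, is a coactivator that binds no DNA itself but joins proteins bound at the promoters of these genes, and its level sets theirs in most cells. B cells and dendritic cells make class II without further stimulus, whereas macrophages, among them the resident Kupffer cells of the liver, raise it after interferon gamma. CD40 is a receptor of B cells, dendritic cells and macrophages, so anti-CD40 acts on each of these cell types.

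Library totals ran from 14991250 to 18984067 counts. The macrophage markers differed between groups. The summed level of 12 Kupffer cell and macrophage markers was 24879 to 42774 CPM (counts relative to library totals scaled by TMM, which offsets differences in RNA composition) in sph/sph anti-CD40, 1069 to 1957 CPM in WT anti-CD40, 39146 to 54692 CPM in sph/sph saline and 36158 to 41743 CPM in WT saline. Adgre1, which encodes F4/80 itself, was at 39.8 to 173 CPM in WT anti-CD40 and at 1579 to 1942 CPM in WT saline. The WT anti-CD40 libraries thus held little mRNA of the protein used for enrichment, although the beads bind the protein and not the mRNA. Fewer macrophages and less of these mRNAs in each macrophage cannot be told apart in bulk RNA. One other library stood apart: sph/sph anti-CD40 C held 895 CPM of the B cell genes Ms4a1, Cd79a and Pax5 summed, against 5.82 to 179 CPM in the other 11 libraries. Column headings of the count table write the control genotype as heterozygous where the labels write wild type, and it is called WT here. The design text counts mice, and the letters A to C only name libraries within a group. Wherever 3 values of a group are given, they stand in the order A, B and C.

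The level of the members spanned several orders of magnitude. In CPM per kilobase of the longest coding transcript, the mean in WT saline was 4835 for Cd74, 2035 for H2-Aa, 1686 for H2-Ab1 and 992 for H2-Eb1. The H2-DM chains followed, with H2-DMb1 at 174 and H2-DMa at 143 CPM per kilobase. Ciita stood at 10.4, H2-Ob at 2.66, H2-Oa at 2.02 and H2-Eb2, a second and little studied E beta gene, at 0.151 CPM per kilobase. Cd74, H2-Aa, H2-Ab1 and H2-Eb1 held ranks 1 to 4 of the mean level in all 4 groups and H2-Eb2 was always last, although neighbours in this order were often not separated. In WT saline the ranges overlapped between Cd74 and H2-Aa, H2-Aa and H2-Ab1, H2-Ab1 and H2-Eb1, H2-DMb1 and H2-DMa, and H2-Ob and H2-Oa, whereas H2-Eb1 lay above H2-DMb1, H2-DMa above Ciita, Ciita above H2-Ob and H2-Oa above H2-Eb2 in all 3 libraries. As a share of a library's counts the 10 genes summed to 0.395% to 0.615% in sph/sph anti-CD40, 0.922% to 2.23% in WT anti-CD40, 0.0839% to 0.281% in sph/sph saline and 0.622% to 2.03% in WT saline.

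Apart from Ciita and Cd74, the members lie on chromosome 17 within 249 kb of each other. On the genome build GRCm38 these 8 genes run from H2-Oa at chr17:34092340-34095234 through H2-DMa at chr17:34119541-34139101, H2-DMb1 at chr17:34153072-34160230, H2-Ob at chr17:34238903-34254414, H2-Ab1 at chr17:34257689-34269419, H2-Aa at chr17:34282744-34287823 and H2-Eb1 at chr17:34305867-34316674 to H2-Eb2 at chr17:34325665-34341412. Ciita spans chr16:10480059-10528418. The promoters of class II genes are known for an X box, bound by the RFX complex and by CREB, and a Y box, bound by NF-Y, set a fixed distance apart. Of the members, 7 matched a RefSeq promoter window (250 bases before to 50 after a start, assembly GRCm38.p6), with 8 windows in all because H2-DMa has more than 1. The letters GCAAC, from the core of the X box, and ATTGG, the core of the Y box, were picked after these sequences had been seen and were sought on both strands. Of the 8 windows, 5 held GCAAC followed by ATTGG after 15 to 40 bases, and so did 1.24% of all 32851 windows. GCAAC alone stood in 35.2% and ATTGG alone in 37.4% of all windows. The stretches of 4 of the 5 windows are printed because they show the element that conventional and rarely expressed members share. H2-Oa held the pair as well. Capitals mark the 2 letter groups.
H2-Aa, chr17:34287861-34287910, minus strand: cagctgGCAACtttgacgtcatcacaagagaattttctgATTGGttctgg
H2-Eb1, chr17:34305770-34305818, plus strand: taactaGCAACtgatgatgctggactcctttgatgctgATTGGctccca
H2-Eb2, chr17:34325537-34325585, plus strand: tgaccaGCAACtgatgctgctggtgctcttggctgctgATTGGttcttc
H2-Ob, chr17:34238812-34238858, plus strand: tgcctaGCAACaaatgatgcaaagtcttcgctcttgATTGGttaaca
The gap between the 2 letter groups was 25 bases in H2-Ob, 27 bases in H2-Eb1 and H2-Eb2, and 28 bases in H2-Aa. The windows of H2-DMa and H2-DMb1 did not hold the pair in this spacing. A match is a description of the letters and not of binding. All 4 genes carry the pair, and H2-Aa and H2-Eb1 stood far above H2-Eb2 and H2-Ob in level.

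Under saline, sph/sph preparations held much less mRNA of the conventional class II chains than WT preparations. H2-Aa, H2-Ab1, H2-Eb1 and Cd74 were 7.77-fold to 9.38-fold lower in sph/sph. Ciita, H2-DMa and H2-DMb1 were also lower in each sph/sph library than in each WT library but were not called, and H2-Eb2, H2-Oa and H2-Ob overlapped between the genotypes. Calls are those of edgeR's quasi-likelihood test at a Benjamini-Hochberg adjusted p under 0.05 over all genes tested. Of the 10 members, 4 fell and none rose, where 0.433% of all genes tested fell and 1.6% rose. The members' median log2 fold was -1.85, against 0.01 over all genes.

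H2-Aa is the alpha chain of the A molecule. It averaged 245 ± 166 CPM in sph/sph saline and 2296 ± 1358 CPM in WT saline (SD, n = 3 each), a log2 fold of -3.23 (95% interval -4.66 to -1.80, edgeR adjusted p = 0.0328). H2-Ab1, its beta chain partner, stood at 396, 98.4 and 199 CPM in sph/sph saline, against 3201, 2051 and 877 CPM in WT saline (log2 fold -3.14, edgeR adjusted p = 0.0334). The highest sph/sph library lay below the lowest WT library, and the WT libraries differed among themselves 3.65-fold. In bulk RNA a smaller number of cells that express a gene and a smaller amount of its RNA in each cell cannot be told apart.

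H2-Eb1, the beta chain of the E molecule, stood at 330, 88.9 and 137 CPM in sph/sph saline, against 2660, 1643 and 666 CPM in WT saline (log2 fold -3.16, edgeR adjusted p = 0.0422). Cd74, on chromosome 18 (chr18:60803848-60812652), stood at 1535, 349 and 750 CPM in sph/sph saline, against 10041, 7154 and 3259 CPM in WT saline (log2 fold -2.96, edgeR adjusted p = 0.0404). In both genotypes the 4 conventional genes were highest in library A. The A libraries of the genotypes share an identification number in the column headings, whose meaning is not given.

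These 4 calls stood near the threshold. H2-Aa kept its call in 8 of the 12 fits that each left out 1 library and lost it without WT saline A or B and without sph/sph saline B or C, where the adjusted p reached 0.127. Without WT saline A its log2 fold was -2.71. H2-Ab1 lost the call in these 4 fits and without sph/sph anti-CD40 B (adjusted p between 0.0511 and 0.126), Cd74 in 8 fits (0.0589 to 0.156) and H2-Eb1 in 9 fits (0.0514 to 0.163). For Cd74 these were the fits without any 1 WT saline library, without sph/sph saline B or C, without WT anti-CD40 C and without sph/sph anti-CD40 A or B. H2-Eb1 lost its call without the same libraries or WT anti-CD40 B. When only the 6 saline libraries were fitted, so that the WT anti-CD40 libraries took no part, the 4 genes kept log2 folds between -3.25 and -2.98 with edgeR adjusted p between 0.0552 and 0.0621. Of all genes tested, 60 fell in the main fit and 358 in the fit of the 6 saline libraries. The falls numbered 12 to 20 without any 1 saline library and 47 to 156 without any 1 anti-CD40 library.

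Ciita stood at 19.1, 11.7 and 6.40 CPM in sph/sph saline, against 82.1, 57.4 and 48.5 CPM in WT saline. The groups did not overlap and the log2 fold was -2.34 (SE 0.59), with edgeR adjusted p = 0.0827. Ciita was called in the fit of the 6 saline libraries alone (adjusted p = 0.0359), with DESeq2 (0.00162), and without sph/sph anti-CD40 C (0.0266). It was also called with the summed B cell markers (edgeR adjusted p = 0.0369) or the mean of Ms4a1, Cd79a and Pax5 (0.0391) as a covariate. In these fits 156 to 358 of all genes tested fell, against 60 in the main fit. H2-DMa had 139, 76.7 and 134 CPM in sph/sph saline, against 359, 292 and 208 CPM in WT saline (log2 fold -1.30, edgeR adjusted p = 0.205). H2-DMb1 had 117, 62.4 and 106 CPM in sph/sph saline, against 328, 248 and 159 CPM in WT saline (log2 fold -1.37, edgeR adjusted p = 0.152, and 0.0344 with DESeq2). Values of H2-DMb1 are uncertain because H2-DMb2 is 95.5% identical to it over 1058 aligned bases, and those of Ciita and H2-DMa because their exons share 329 and 360 bases with Dexi and Brd2 on the opposite strand and no source used here states how strand was treated in counting. Separation without overlap, in the lower direction, was seen for 7 of the 10 members and for 14.3% of all genes tested.

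H2-Oa, H2-Ob and H2-Eb2 were low in both saline groups. H2-Oa had 49, 50 and 35 reads in sph/sph saline, against 28, 52 and 35 reads in WT saline. H2-Ob had 83, 184 and 45 reads in sph/sph saline, against 137, 146 and 81 reads in WT saline. H2-Eb2 had 6, 12 and 4 reads in sph/sph saline, against 11, 5 and 10 reads in WT saline. None of these 3 genes was called, and their intervals were wide: the log2 folds were -0.18 for H2-Eb2 (95% interval -1.58 to 1.22), 0.32 for H2-Oa (SE 0.71) and -0.16 for H2-Ob (-3.07 to 2.75).

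**Figure D1:**
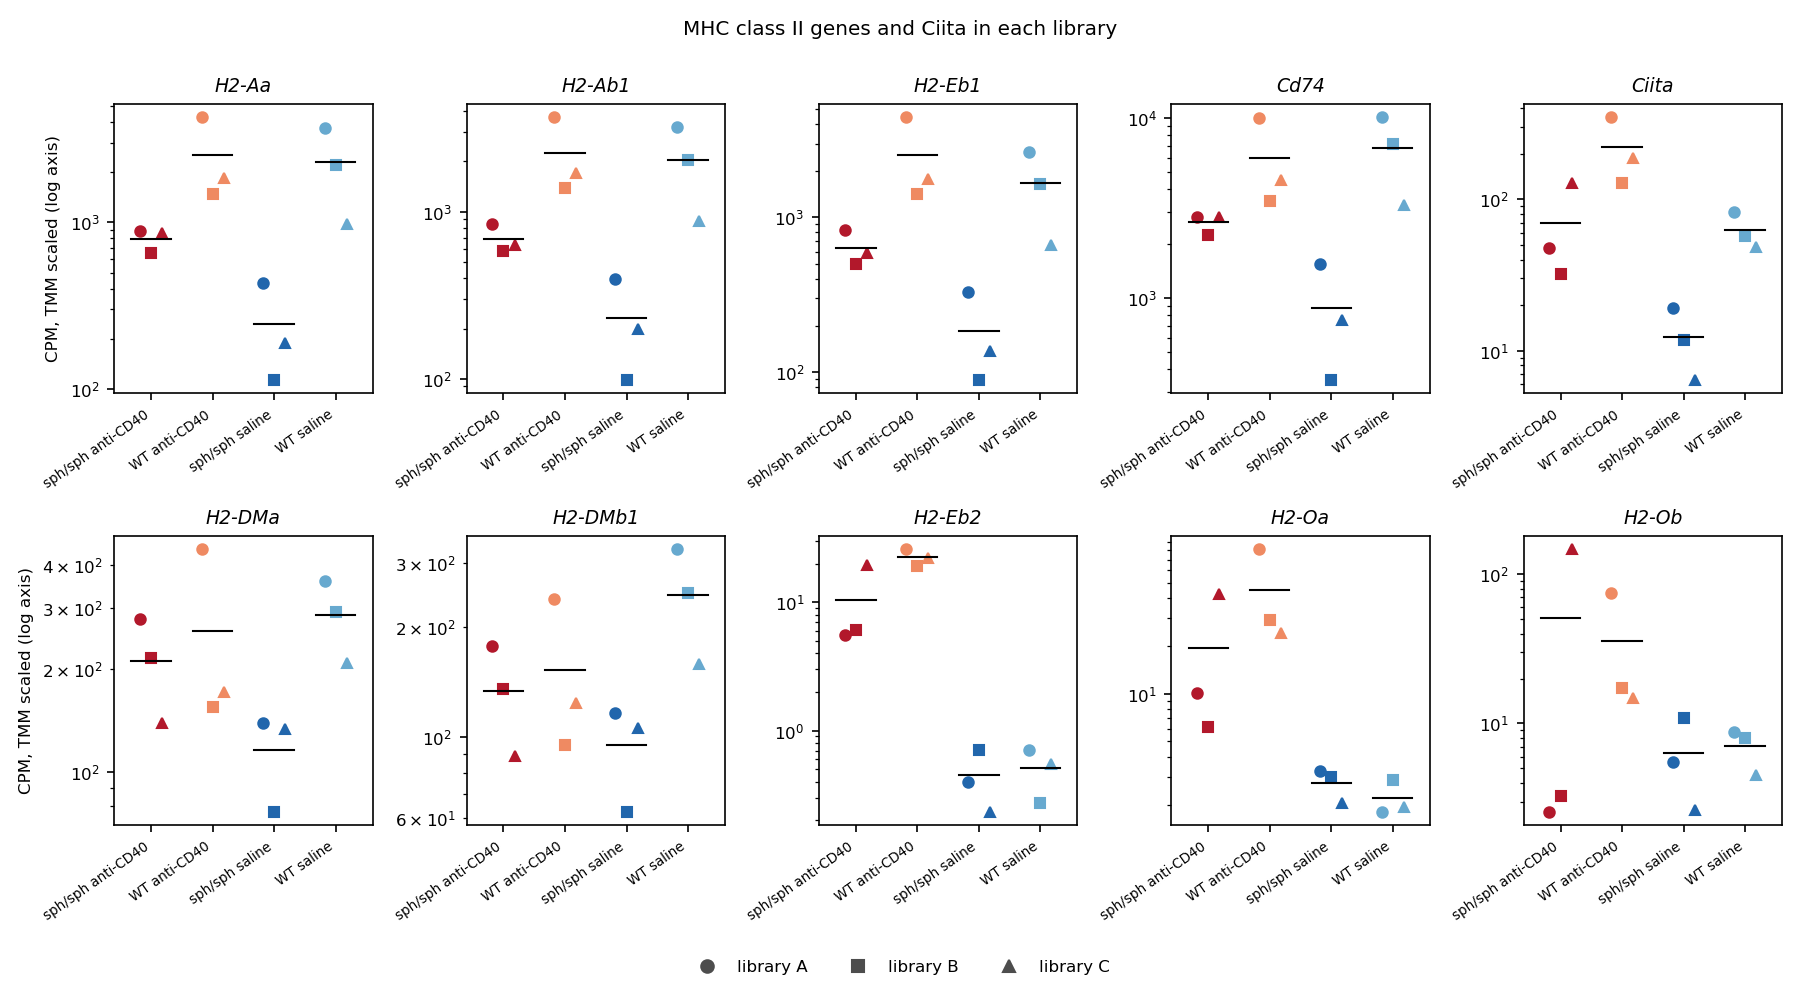
Level of each member in CPM on a log axis, by group, with 1 marker per library (A circle, B square, C triangle) and a black line at the group mean. H2-Aa, H2-Ab1, H2-Eb1 and Cd74 are lowest in sph/sph saline, whereas H2-Eb2 is below 1 CPM in all 6 saline libraries and between 5.53 and 25.9 CPM in all 6 anti-CD40 libraries.

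In WT mice H2-Eb2, H2-Oa and Ciita rose under anti-CD40. The conventional chains and Cd74 overlapped widely between treatments, and no member fell. The 3 members that rose stand beside a background of 19.4% of all genes tested that rose in this contrast, and 19.7% fell. The members' median log2 fold was 0.38, against 0.05 over all genes.

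H2-Eb2 had 25.9, 19.3 and 22.2 CPM in WT anti-CD40, against 0.707, 0.275 and 0.554 CPM in WT saline. It was 43.6-fold higher under anti-CD40 (log2 fold 5.45, 95% interval 4.04 to 6.85, edgeR adjusted p = 0.000181). The reads behind these levels were 389, 368 and 451 in the WT anti-CD40 libraries and 11, 5 and 10 in the WT saline libraries, so H2-Eb2 passed the count filter through the anti-CD40 groups. The transcripts of H2-Eb2 and H2-Eb1 are 78.8% identical over 770 aligned bases and share 0 stretches of 50 bases.

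H2-Oa, the alpha chain of the H2-O pair, had 81.3, 29.2 and 24.2 CPM in WT anti-CD40, against 1.80, 2.86 and 1.94 CPM in WT saline. It was 20.3-fold higher under anti-CD40 (log2 fold 4.34, 95% interval 2.63 to 6.05, edgeR adjusted p = 0.00194). H2-Eb2 and H2-Oa were called in all 12 fits that left out 1 library. An antisense transcript that is not in the count table shares 321 exon bases with H2-Oa. H2-Ob, its partner chain, had 74.3, 17.2 and 14.7 CPM in WT anti-CD40, against 8.80, 8.02 and 4.49 CPM in WT saline. These groups did not overlap either, but H2-Ob was not called (log2 fold 2.32, 95% interval -0.67 to 5.30, edgeR adjusted p = 0.193). H2-Ob rose in WT once sph/sph anti-CD40 C was left out (log2 fold 2.28, edgeR adjusted p = 0.0226), and it also rose when only the WT libraries were fitted (adjusted p = 0.0390). Of all genes tested, 3297 rose in the former fit and 2961 in the latter, against 2690 in the main fit.

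Ciita had 347, 128 and 187 CPM in WT anti-CD40, against 82.1, 57.4 and 48.5 CPM in WT saline. It was 3.52-fold higher under anti-CD40 (log2 fold 1.82, 95% interval 0.54 to 3.09, edgeR adjusted p = 0.0299), and the groups did not overlap. Ciita lost the call in 5 of the 12 fits, those without any 1 WT saline library or without WT anti-CD40 A or C (adjusted p between 0.0516 and 0.100). Separation in the higher direction was seen for 4 of the 10 members (H2-Eb2, H2-Oa, H2-Ob and Ciita) and for 29.3% of all genes tested.

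H2-Aa had 4261, 1483 and 1852 CPM in WT anti-CD40, against 3691, 2217 and 978 CPM in WT saline, so the groups overlapped throughout. Its log2 fold was 0.14 with a 95% interval of -1.17 to 1.45 (edgeR adjusted p = 0.868), which leaves room for a change of more than 2-fold in either direction. Log2 folds were 0.14 for H2-Ab1 (-1.15 to 1.42), 0.61 for H2-Eb1 (-0.77 to 1.99) and -0.19 for Cd74 (-1.48 to 1.10). H2-DMa stood at 257 ± 163 CPM in WT anti-CD40 and 286 ± 75.5 CPM in WT saline (SD, n = 3 each), and H2-DMb1 at 153 ± 76.5 CPM in WT anti-CD40 and 245 ± 84.3 CPM in WT saline. H2-DMb1 was called as lower only in the fit without WT anti-CD40 A (log2 fold -1.16, edgeR adjusted p = 0.0461). WT anti-CD40 A was the highest of its group for all 10 members.

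Markers of several cell types moved with the treatment in WT (calls by edgeR over all genes tested). In this contrast 19.4% of all genes tested rose and 19.7% fell. Of the 12 Kupffer cell and macrophage markers 11 fell. Of 12 markers of conventional dendritic cells 3 rose and 2 fell, and their summed level was 794 to 1645 CPM in WT anti-CD40 and 177 to 293 CPM in WT saline. The list's median log2 fold was 0.28, against 0.05 over all genes. Those that rose were Ccr7, a receptor of migrating dendritic cells, Fscn1, an actin bundling protein of mature dendritic cells, and Zbtb46, a transcription factor of conventional dendritic cells. Those that fell were Batf3 (log2 fold -1.35), another transcription factor of these cells, and Tbc1d4 (-0.75). Ccr7 had 286, 65.7 and 52.2 CPM in WT anti-CD40, against 1.61, 0.604 and 1.05 CPM in WT saline. Of 17 B cell markers 5 rose and 1 fell, of 8 monocyte markers 4 rose, of 4 plasmacytoid dendritic cell markers 4 rose and of 8 T and NK cell markers 8 rose. Of 6 sinusoidal endothelial cell markers 1 rose. Median log2 folds were -5.24 for Kupffer cell and macrophage, 6.44 for T and NK cell and 5.45 for plasmacytoid dendritic cell markers. They were 3.11 for monocyte, 3.05 for B cell and -0.19 for sinusoidal endothelial cell markers. The calls of the conventional dendritic cell and sinusoidal endothelial cell lists were near the shares over all genes. No marker on any of these lists was at 0 in a whole group. The part of these cells in the rise of H2-Eb2, H2-Oa and Ciita was not tested. With the summed dendritic cell markers as a covariate, no member was called in this contrast. The log2 folds were then 4.28 for H2-Eb2 (edgeR adjusted p = 0.214), 1.32 for H2-Oa (0.673) and -0.85 for Ciita (0.768). In that fit 24 genes rose and 92 fell among all genes tested, against 2690 and 2730 in the main fit. The dendritic cell sum separated WT anti-CD40 from WT saline without overlap, so the covariate is partly the group and this fit cannot decide the question.

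In sph/sph mice H2-Eb2 rose under anti-CD40, and most other members were higher without being called. Of the 10 members 8 were higher in each anti-CD40 library than in each saline library, compared with 10.1% of all genes tested. Only H2-Eb2 was called, where 0.578% of all genes tested rose and 0.202% fell. At an unadjusted p under 0.05 there were 7 members. The median log2 fold of the 10 was 1.74, against 0.04 over all genes. Of the marker lists 1 of 8 monocyte markers rose, and no marker of the other lists was called in this contrast. The median log2 fold was still 4.10 for B cell, 2.81 for T and NK cell, 2.75 for monocyte and 2.68 for plasmacytoid dendritic cell markers. It was -0.24 for conventional dendritic cell, -0.52 for sinusoidal endothelial cell and -0.89 for Kupffer cell and macrophage markers. The part of these cells in the members' values was not tested.

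H2-Eb2 had 5.53, 6.06 and 19.6 CPM in sph/sph anti-CD40, against 0.399, 0.712 and 0.233 CPM in sph/sph saline. It was 22.9-fold higher (log2 fold 4.52, 95% interval 3.15 to 5.89, edgeR adjusted p = 0.0237), and lost the call without any 1 of the sph/sph saline libraries or without sph/sph anti-CD40 A (adjusted p between 0.0542 and 0.152). Without any 1 of these saline libraries, 0 of all genes tested were called in this contrast. Without sph/sph anti-CD40 A 1 gene rose and 0 fell, so these losses were not particular to H2-Eb2. H2-Oa had 10.1, 6.14 and 42.3 CPM in sph/sph anti-CD40, against 3.26, 2.97 and 2.04 CPM in sph/sph saline (log2 fold 2.83, edgeR adjusted p = 0.0894). H2-Ob overlapped, at 2.56, 3.25 and 147 CPM in sph/sph anti-CD40, against 5.52, 10.9 and 2.62 CPM in sph/sph saline. Its log2 fold was 3.00 with all libraries and -1.13 without sph/sph anti-CD40 C, and it was called in neither fit. Library C, the one rich in B cell transcripts, was the highest of its group for H2-Eb2, H2-Oa, H2-Ob and Ciita.

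Ciita had 47.9, 32.2 and 128 CPM in sph/sph anti-CD40, against 19.1, 11.7 and 6.40 CPM in sph/sph saline (log2 fold 2.49, edgeR adjusted p = 0.0774). Without sph/sph anti-CD40 C it rose by a log2 fold of 1.69 (edgeR adjusted p = 0.0453). Calls over all genes grew in that fit, to 1382 rises and 990 falls of 14066 tested. With all libraries they were 80 and 28 of 13844. H2-Aa had 885, 655 and 857 CPM in sph/sph anti-CD40, against 431, 113 and 190 CPM in sph/sph saline (log2 fold 1.71, 95% interval 0.36 to 3.06, edgeR adjusted p = 0.157). H2-Ab1, H2-Eb1 and Cd74 gave log2 folds of 1.57, 1.78 and 1.58, with edgeR adjusted p of 0.174, 0.158 and 0.173. All 4 conventional genes separated without overlap, and library C, at 631 CPM of H2-Ab1 and 2825 CPM of Cd74, was not the one that separated them, since A stood at 848 and 2821 CPM. H2-DMa (log2 fold 0.86) and H2-DMb1 (0.50) were not called.

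Among mice given anti-CD40, sph/sph preparations had lower levels of the conventional chains, but no member was called by edgeR, where 17.7% of all genes tested were called. At an unadjusted p under 0.05 there were 4 members, H2-Aa, H2-Ab1, H2-Eb1 and Ciita, and DESeq2 called these 4. Of 18752 genes tested by DESeq2, 1903 rose and 1471 fell. H2-Aa averaged 799 ± 126 CPM in sph/sph anti-CD40 and 2532 ± 1509 CPM in WT anti-CD40 (SD, n = 3 each). Its log2 fold was -1.66 (95% interval -3.01 to -0.32, edgeR adjusted p = 0.0875). H2-Eb1 had 824, 497 and 591 CPM in sph/sph anti-CD40, against 4424, 1412 and 1768 CPM in WT anti-CD40 (log2 fold -1.99, edgeR adjusted p = 0.0574). H2-Ab1 gave -1.71 (edgeR adjusted p = 0.0757) and Cd74 gave -1.18 (0.201). These 4 genes were lower in each sph/sph library than in each WT library, which was the case for 11.7% of all genes tested.

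For Ciita, H2-Eb2, H2-Oa and H2-Ob this contrast turned on sph/sph anti-CD40 C. With all libraries the log2 folds were -1.67 for Ciita (edgeR adjusted p = 0.0715), -1.10 for H2-Eb2 (0.168), -1.20 for H2-Oa (0.256) and 0.53 for H2-Ob (0.816). Without that library all 4 were called as lower in sph/sph: Ciita at -2.45 (edgeR adjusted p = 0.0123), H2-Eb2 at -1.94 (0.00951), H2-Oa at -2.46 (0.0115) and H2-Ob at -3.59 (0.0180). H2-Ob thereby changed sign. Its levels were 2.56, 3.25 and 147 CPM in sph/sph anti-CD40, against 74.3, 17.2 and 14.7 CPM in WT anti-CD40. Leaving out sph/sph anti-CD40 C also raised the calls over all genes, to 1893 rises and 1515 falls of 14066 tested. With all libraries they were 1598 and 857 of 13844. H2-DMa stood at 211 ± 69.8 CPM in sph/sph anti-CD40 and 257 ± 163 CPM in WT anti-CD40, and H2-DMb1 at 134 ± 44.7 CPM in sph/sph anti-CD40 and 153 ± 76.5 CPM in WT anti-CD40 (SD, n = 3 each). Marker values that moved with this contrast were those of macrophages, of which 12 of 12 rose, of dendritic cells, of which Zbtb46 and Fscn1 fell, of T and NK cells, of which 4 of 8 fell, and of the B cell list, of which Bank1 and Cd22 rose. Bank1 and Cd22 were also high in saline libraries with few Cd79a reads, and Ms4a1, Cd79a and Pax5 were not called in this contrast. The part of these cell types in the members' difference was not tested.

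The test of whether the genotypes responded differently to anti-CD40 (the response in sph/sph minus that in WT) called no member, and 4.3% of all genes tested were called. No member reached an unadjusted p under 0.05 either. The values for the conventional genes were 1.57 for H2-Aa (95% interval -0.30 to 3.43), 1.44 for H2-Ab1 (-0.39 to 3.26), 1.17 for H2-Eb1 (-0.79 to 3.12) and 1.78 for Cd74 (-0.06 to 3.61) on the log2 scale. A larger rise in sph/sph was thus not shown. Values were 0.67 for Ciita (-1.09 to 2.43), -0.93 for H2-Eb2 (-2.74 to 0.89) and 0.69 for H2-Ob. Without sph/sph anti-CD40 C the value was -0.09 for Ciita and -3.41 for H2-Ob, neither of them called. Without that library H2-Oa was called, with a smaller rise in sph/sph (-2.77, edgeR adjusted p = 0.0471). In the same fit 605 of 14066 genes tested were called with a positive value and 337 with a negative one. With all libraries these were 440 and 155 of 13844.

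**Figure D2:**
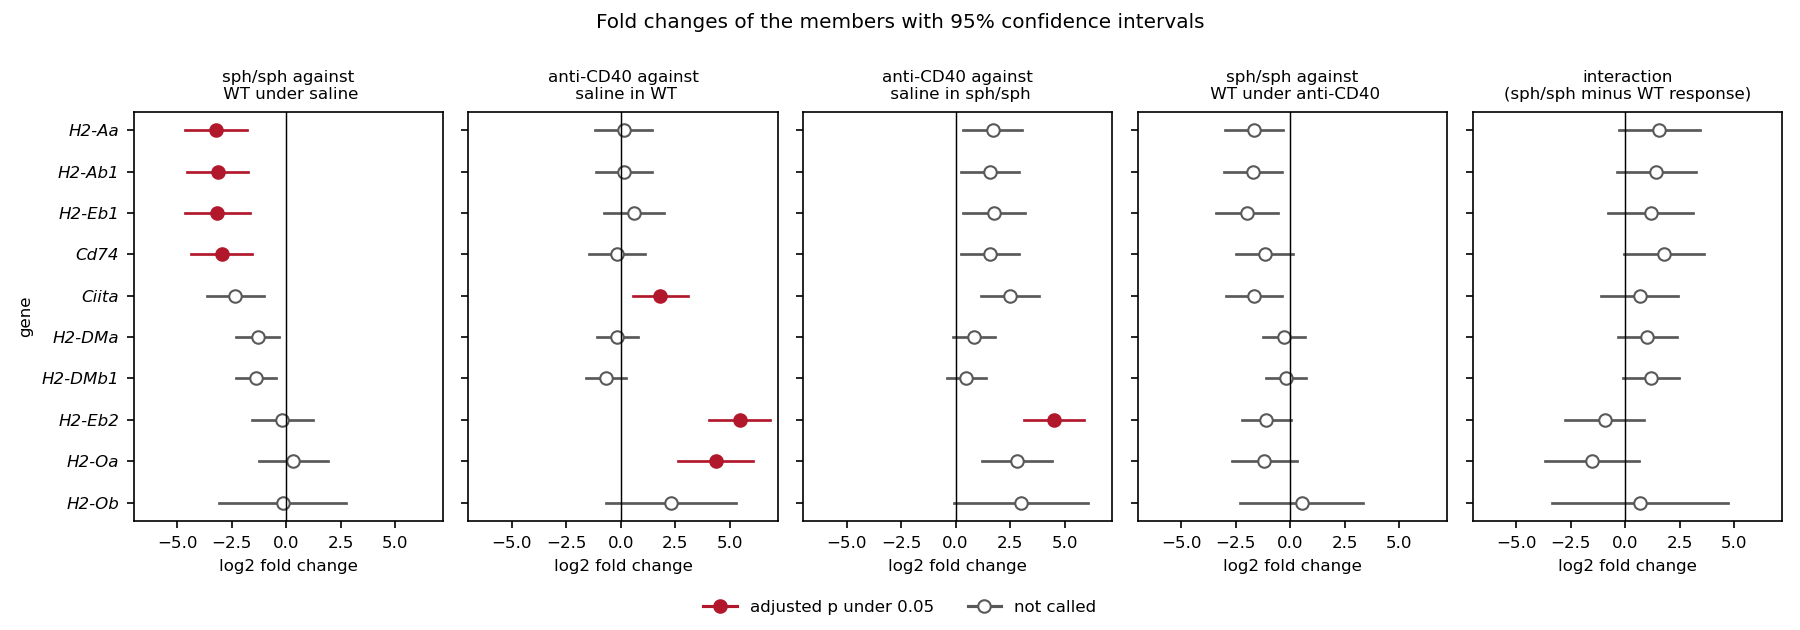
Log2 fold change of each member in each contrast with its 95% interval from edgeR, filled red where the adjusted p is under 0.05. H2-Aa, H2-Ab1, H2-Eb1 and Cd74 lie together near -3 for sph/sph against WT under saline, and H2-Eb2 and H2-Oa lie at 5.45 and 4.34 for anti-CD40 against saline in WT.

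B cells express class II genes without further stimulus, so their transcripts were set beside the members library by library. The summed level of Ms4a1, Cd79a and Pax5 was 54.0, 19.1 and 895 CPM in sph/sph anti-CD40, and 24.6, 115 and 179 CPM in WT anti-CD40. Under saline it was 7.71, 32.2 and 6.81 CPM in sph/sph, and 8.87, 6.26 and 5.82 CPM in WT. The summed level of H2-Aa, H2-Ab1, H2-Eb1 and Cd74 did not follow this order. It was 5378, 3981 and 4904 CPM in sph/sph anti-CD40, and 22301, 7707 and 9832 CPM in WT anti-CD40. Under saline it was 2693, 650 and 1276 CPM in sph/sph, and 19593, 13066 and 5780 CPM in WT.

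The ratio of these sums ran from 5.48 in sph/sph anti-CD40 C to 2209 in WT saline A. WT anti-CD40 A had the highest conventional sum and the lowest B cell sum of its group. In sph/sph saline the library with the most B cell transcripts, B, had the least class II. Across the 12 libraries the Pearson correlation of log2 CPM with Cd79a was 0.02 for H2-Aa, 0.43 for Ciita, 0.66 for H2-Ob, 0.69 for H2-Oa and 0.73 for H2-Eb2, as a description of points that share groups. The fall under saline in sph/sph stood beside B cell sums that overlapped between the genotypes, and none of the 17 B cell markers was called there. The median log2 fold of these markers was 1.13, higher in sph/sph, against 0.01 over all genes. The fall also stood beside dendritic cell marker sums of 217, 211 and 106 CPM in sph/sph saline, against 177, 293 and 224 CPM in WT saline, and none of those 12 markers was called. With the summed B cell markers as a covariate the 4 conventional genes kept their calls in this contrast. With the summed dendritic cell markers they lost them (edgeR adjusted p between 0.0688 and 0.0923), at log2 folds between -3.05 and -2.75. That covariate left 147 rises and 20 falls among all genes tested, against 222 and 60 in the main fit. With the mean of Ms4a1, Cd79a and Pax5 as the covariate, a choice made after seeing the data, H2-Eb2 and H2-Oa kept their calls for anti-CD40 in WT and Ciita did not (log2 fold 1.36, edgeR adjusted p = 0.103).

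H2-Ob behaved otherwise. It stood at 147 CPM in sph/sph anti-CD40 C, with 895 CPM of these B cell transcripts, and at 74.3 CPM in WT anti-CD40 A, with 24.6 CPM. H2-Oa stood at 42.3 CPM in the one and 81.3 CPM in the other. The ratio of H2-Oa to Cd79a was 0.135 in sph/sph anti-CD40 C and 14.2 in WT anti-CD40 A, so these genes did not keep 1 ratio across libraries. Ccr7 was highest in WT anti-CD40 A as well, and its Pearson correlation across the 12 libraries was 0.97 with H2-Oa, 0.93 with H2-Eb2 and 0.74 with Ciita. With Fscn1 the coefficients were 0.79 for H2-Oa, 0.81 for H2-Eb2 and 0.70 for Ciita, and with Zbtb46 they were 0.62, 0.58 and 0.74 in the same order of genes. After the group means were subtracted, they stayed at 0.87, 0.85 and 0.91 with Ccr7 but were -0.23, -0.40 and -0.16 with Fscn1 and 0.31, 0.40 and 0.33 with Zbtb46. Ccr7, Fscn1 and Zbtb46 are the dendritic cell markers that rose under anti-CD40 in WT, where Batf3 and Tbc1d4 of the same list fell. Their coefficients with members that rose there are partly set by that choice. No coefficient was computed for the other markers of that list. Bank1 stood at 161, 151 and 184 CPM in WT saline, where Cd79a averaged 2.62 CPM, so Ms4a1, Cd79a and Pax5 served as the measure of B cell transcripts. All 17 B cell markers summed to 406, 175 and 4616 CPM in sph/sph anti-CD40, and 159, 553 and 749 CPM in WT anti-CD40. Under saline they summed to 409, 429 and 293 CPM in sph/sph, and 311, 272 and 337 CPM in WT. By this sum WT anti-CD40 A lay below all WT saline libraries, whereas by the 3 genes it lay above them.

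**Figure D3:**
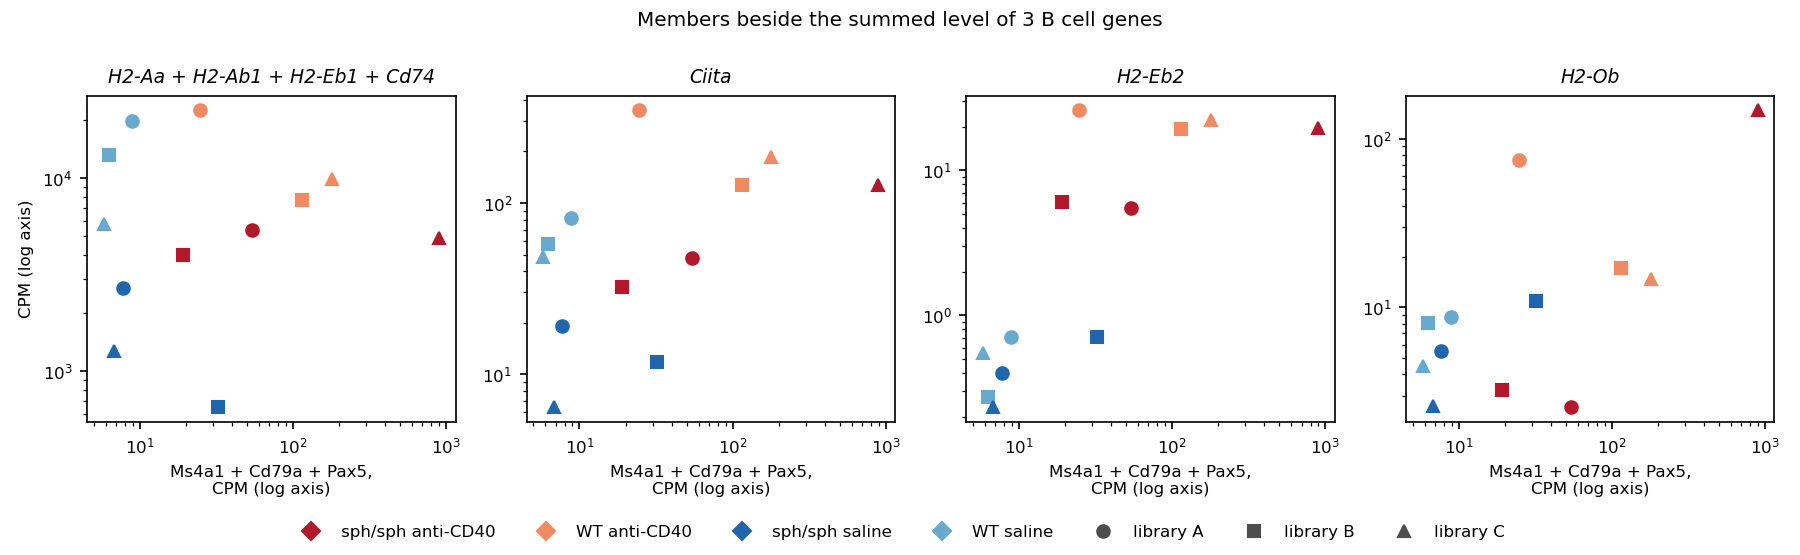
Level of the conventional class II sum, Ciita, H2-Eb2 and H2-Ob (vertical, CPM) against the summed level of Ms4a1, Cd79a and Pax5 (horizontal, CPM), on log axes, with 1 marker per library. The library at 895 CPM of B cell transcripts, sph/sph anti-CD40 C, has the highest H2-Ob at 147 CPM but a conventional sum of 4904 CPM, below all WT libraries.

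Ratios within a library do not depend on its depth, and they are of counts and not per length. H2-Aa to H2-Ab1, the chains of 1 dimer, stayed between 0.955 and 1.36 in all 12 libraries, while the level of H2-Aa ranged from 113 to 4261 CPM. H2-Aa to H2-Eb1 was 1.07 to 1.45 in sph/sph anti-CD40, 0.963 to 1.05 in WT anti-CD40, 1.27 to 1.38 in sph/sph saline and 1.35 to 1.47 in WT saline, so the WT anti-CD40 libraries were lower than the other 9 in H2-Aa for a given H2-Eb1. Ciita to Cd74 was 0.0170, 0.0144 and 0.0453 in sph/sph anti-CD40, and 0.0349 to 0.0413 in WT anti-CD40. Under saline it was 0.0124, 0.0335 and 0.00854 in sph/sph, and 0.00802 to 0.0149 in WT. In each sph/sph group the library with the most B cell transcripts (B under saline, C under anti-CD40) had the highest Ciita to Cd74 ratio.

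H2-DMb2, the other beta chain gene of H2-DM, behaved differently from H2-DMb1. Its count was 0.109, 0.0530 and 2.04 times that of H2-DMb1 in sph/sph anti-CD40, and 0.900 to 1.05 times in WT anti-CD40. Under saline it was 0.0605 to 0.149 times in sph/sph and 0.0475 to 0.0777 times in WT. H2-DMb2 rose in WT under anti-CD40 (log2 fold 3.46, edgeR adjusted p = 0.0184), with 252, 95.8 and 111 CPM in WT anti-CD40, against 15.6, 13.9 and 12.4 CPM in WT saline. It lost this call without any 1 of the WT saline libraries (adjusted p up to 0.0635). The split of reads between these 2 genes is uncertain, as 26.6% of the 50-base stretches of H2-DMb1 also occur in H2-DMb2.

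**Figure D4:**
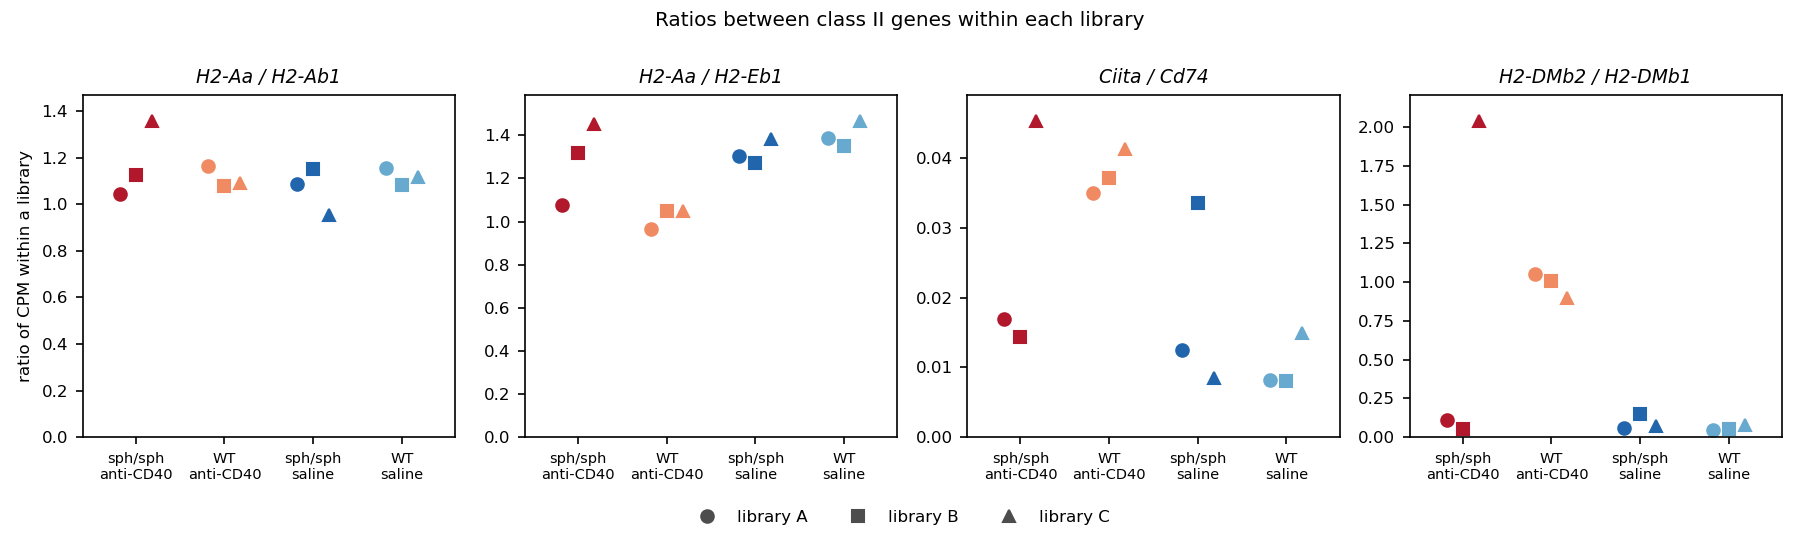
Ratios of counts within each library, by group, with 1 marker per library. H2-Aa to H2-Ab1 lies between 0.955 and 1.36 throughout, whereas H2-DMb2 to H2-DMb1 is 0.900 to 1.05 in WT anti-CD40 and 2.04 in sph/sph anti-CD40 C, against at most 0.149 in the other 8 libraries.

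Other genes of class II processing were counted from a list of 10, of which 8 were tested (H2-Ea and Ifi30 were not analysed here). None of the 8 was called with genotype under saline or with anti-CD40 in sph/sph, and their median log2 folds there were -0.04 and -0.49. In WT under anti-CD40 1 rose, H2-DMb2, and 4 fell (median -1.20), where 19.4% of all genes tested rose and 19.7% fell. The 4 genes that fell are named next. These were proteases of the endosome, Lgmn (log2 fold -2.99), Ctsb (-2.27) and Ctss (-1.44), the last of which trims the invariant chain, and Marchf1 (-2.55), a ubiquitin ligase that removes class II from the surface. Ctss had 2031, 836 and 781 CPM in WT anti-CD40, against 3370, 2958 and 3600 CPM in WT saline (edgeR adjusted p = 0.0154), and lost the call without WT anti-CD40 B or C (adjusted p up to 0.0551). In this contrast 11 of 12 macrophage markers also fell, and their part in these 4 falls was not tested.

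Marchf1 had 174, 249 and 209 CPM in sph/sph anti-CD40, against 52.8, 42.5 and 22.8 CPM in WT anti-CD40 (log2 fold 2.42, edgeR adjusted p = 0.000463). Lgmn (2.15), Ctsb (1.75) and Ctsd (1.11), all endosomal proteases, were also higher in sph/sph under anti-CD40. Cd83, which protects class II from Marchf1, was lower (log2 fold -1.65, edgeR adjusted p = 0.0381), with 90.9, 65.3 and 133 CPM in sph/sph anti-CD40, against 519, 168 and 217 CPM in WT anti-CD40. Ctsd lost its call without sph/sph saline A, WT anti-CD40 B or C, or sph/sph anti-CD40 A or B (adjusted p up to 0.107). Cd83 lost it without WT saline B, sph/sph saline C, WT anti-CD40 A or C, or sph/sph anti-CD40 A or B (adjusted p up to 0.115). The responses of Lgmn and Marchf1 to anti-CD40 differed between the genotypes, by 2.37 (edgeR adjusted p = 0.00185) and 2.27 (0.0102) on the log2 scale.

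The subunits of the promoter complex that CIITA joins gave 1 call over all contrasts. Of Rfx5, Rfxank, Rfxap, Nfya, Nfyb, Nfyc and Creb1, all 7 tested, none was called with genotype under saline (median log2 fold -0.24), with anti-CD40 in sph/sph (0.16) or with genotype under anti-CD40 (-0.13). In WT under anti-CD40 Nfyb, a subunit of NF-Y, rose by a log2 fold of 0.63 (edgeR adjusted p = 0.0291), a call lost without any 1 WT saline library or without WT anti-CD40 B or C (adjusted p up to 0.103). Of all genes tested, 19.4% rose in this contrast. Rfx5, the DNA binding subunit of RFX, had 62.6, 35.7 and 27.8 CPM in WT anti-CD40, against 25.7, 24.6 and 25.6 CPM in WT saline, and was not called.

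Among 13 regulators of Ciita and of the interferon gamma pathway that induces it, none was called with genotype under saline (median log2 fold -0.19) or with anti-CD40 in sph/sph (0.18). In WT under anti-CD40 5 rose and 3 fell (median 0.30), where 19.4% of all genes tested rose and 19.7% fell. Those that rose were Ifng (interferon gamma), the kinase Jak2 (log2 fold 1.54), the transcription factors Irf1 (1.87) and Irf8 (1.59), and Socs1 (5.06), an inhibitor of the pathway. Those that fell were the receptor chain Ifngr1 (-2.36) and the transcription factors Irf2 (-0.70) and Usf1 (-0.71). Ifng had 1284 reads over the 3 WT anti-CD40 libraries and 3 reads over the 3 WT saline libraries, and passed the filter through the WT anti-CD40 group. Usf1 lost its call without WT saline C or WT anti-CD40 B or C, with adjusted p up to 0.0622.

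Under anti-CD40 the same list held 1 gene that was higher and 4 that were lower in sph/sph, where 17.7% of all genes tested were called. Ifng had 1.24, 0.148 and 0.432 CPM in sph/sph anti-CD40, against 16.2, 37.1 and 16.5 CPM in WT anti-CD40 (log2 fold -5.24, edgeR adjusted p = 0.00277). As Ifng passed the count filter through WT anti-CD40, where it was high, this call is not independent of the filter. Socs1 (-2.96), Irf8 (-1.37) and Jak2 (-1.07) were lower and Ifngr1 (1.06) was higher in sph/sph. Irf1 was not called here and varied within sph/sph, with 499, 399 and 113 CPM in sph/sph anti-CD40, against 832, 648 and 707 CPM in WT anti-CD40. The summed T and NK cell markers, cell types that make interferon gamma, were 2.22 to 59.0 CPM in sph/sph anti-CD40 and 105 to 1066 CPM in WT anti-CD40, and their part in the difference of Ifng was not tested.

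Among all genes tested, those whose log2 CPM across the 12 libraries was most like the mean of H2-Aa, H2-Ab1, H2-Eb1 and Cd74 were Chst1 (Pearson r = 0.94), Uba7 (0.89), Gm12216 (0.88), 0610037L13Rik (0.87) and Creb5 (0.87). Chst1 stood below 2 CPM in every library, whereas Uba7 averaged 115 ± 21.6 CPM in sph/sph saline and 189 ± 43.9 CPM in WT saline (SD, n = 3 each). Members outside that mean had coefficients with it of 0.86 for Ciita and H2-DMa, 0.79 for H2-DMb1, 0.41 for H2-Eb2 and H2-Oa and 0.36 for H2-Ob. Most like Ciita were Cep135 (0.98), Kctd3 (0.93), Rogdi (0.93), Ktn1 (0.92) and Sbf1 (0.92). Ktn1 averaged 33.3 ± 4.93 CPM in sph/sph anti-CD40, 58.2 ± 11.3 CPM in WT anti-CD40, 26.0 ± 3.80 CPM in sph/sph saline and 35.3 ± 4.99 CPM in WT saline. These coefficients rank genes over libraries that share their groups and carry no test.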

How the data were processed

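The deposited values are whole-number read counts per gene, 1 column per library, with no normalization visible in the values. The tools named are STAR 2.7.0e, SAMtools 1.9 and featureCounts on GRCm38.p5, per the submitters' processing notes; annotation, strand setting and treatment of reads with several matches were not given in the sources used. Per the labels' protocols the libraries are stranded TruSeq. Genes were filtered with filterByExpr by group, normalized by TMM and fitted over all 12 libraries with a mean per group in edgeR 4.0.16 (R 4.3.3, robust quasi-likelihood F test, Benjamini-Hochberg over 13844 genes, call at 0.05). SE is the log2 fold over the root of F. CPM uses edgeR's TMM-scaled totals. The fit was tested on simulated data. Depth was similar between libraries. Where nothing beyond the design text shows separate animals, p-values measure the spread between these libraries. DESeq2 1.42.0, limma-voom 3.58.1, other scalings, no filter, left-out libraries and marker covariates were the alternatives, and the covariate of 3 B cell genes was added after seeing the data. Some genes of the lists are not reported here and were left out of list counts, sums and covariates. Coordinates come from GENCODE M21 (GRCm38), promoters from RefSeq (GRCm38.p6). Members, lists, markers and tests were chosen with earlier results of these data known. Named are all members, list genes that were called, and the 5 genes most like each of 2 patterns; Rfx5 and Irf1 under anti-CD40 were named after their values were seen.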

Additional observations from a re-analysis of the deposited data

Results flagged for a closer look

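For 5 genes of the class II processing and Ciita regulator lists the response to anti-CD40 differed between the genotypes by edgeR's test of the difference (the response in sph/sph minus that in WT, on the log2 scale). Lgmn gave 2.37 and Marchf1 gave 2.27, each with a fall in WT that was smaller in sph/sph. Ifngr1 gave 1.55 (edgeR adjusted p = 0.0120). Jak2 gave -0.98 (edgeR adjusted p = 0.0343) and Irf8 gave -1.41 (0.0340), and these 2 were called in 3 and 4 of the 12 fits that left out 1 library, whereas the others were called in all 12. Jak2 kept the call without WT anti-CD40 A or without sph/sph anti-CD40 B or C, and Irf8 without sph/sph saline B, WT anti-CD40 A or sph/sph anti-CD40 A or C. No member of the class II set differed in this way, and 4.3% of all genes tested did. The WT anti-CD40 libraries, which enter each of these differences, are those with low macrophage markers.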

How the results depend on the processing

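No paired analysis was possible because the columns of the count table carry no replicate number and the genotypes share only 1 identification number under each treatment. The numbers of all tested genes that rose and fell stand in brackets behind each count of members. Of the 10 members, 4 were called for sph/sph against WT under saline (222 and 60). The count was 6 with DESeq2 (560 and 254), 5 with the B cell covariate (495 and 195) and 5 with the covariate of 3 B cell genes (533 and 217). It was 1 when only the compared groups were fitted (533 and 358) and 0 with the dendritic cell covariate (147 and 20). With 1 library left out it was 0 to 5 (61 to 383 and 12 to 156). For anti-CD40 in WT the count was 3 (2690 and 2730). It was 4 with only the compared groups (2961 and 2773) and 2 with the covariate of 3 B cell genes (3007 and 3044). It was 0 with the dendritic cell covariate (24 and 92) and 2 to 4 with 1 library left out (1647 to 3297 and 2104 to 3286). For anti-CD40 in sph/sph the count was 1 (80 and 28). It was 3 with DESeq2 (692 and 590), 2 with the B cell covariate (1139 and 750) and 2 with the covariate of 3 B cell genes (1600 and 938). It was 0 with limma-voom (31 and 33), with only the compared groups (0 and 0) and with the dendritic cell covariate (1 and 0). With 1 library left out it was 0 to 2 (0 to 1382 and 0 to 990). For genotype under anti-CD40 the count was 0 (1598 and 857). It was 4 with DESeq2 (1903 and 1471) and 2 with limma-voom (1463 and 890). It was 2 with the B cell covariate (2146 and 1834) and with the covariate of 3 B cell genes (2102 and 1783). It was 1 with total counts only (1325 and 888) and 0 to 4 with 1 library left out (954 to 1893 and 401 to 1515). For the difference of responses it was 0 (440 and 155), and 0 to 1 with 1 library left out (211 to 691 and 48 to 337). The dendritic cell sum is itself higher in all WT anti-CD40 libraries, so that covariate is partly the group. Values that changed sign with a call before or after were Ciita for anti-CD40 in WT with the dendritic cell covariate (-0.85) and H2-Ob for genotype under anti-CD40, which ran from -3.59 (without sph/sph anti-CD40 C) to 1.68 (without WT anti-CD40 A) with 1 library left out. A further 20 member values, uncalled before and after, changed sign with 1 library left out and 22 under other alternatives. Among them H2-Ob without sph/sph anti-CD40 C was -1.13 for anti-CD40 in sph/sph, and with the dendritic cell covariate it was -2.36 and H2-Aa -1.46 for anti-CD40 in WT. The cause of these changes was not tested. Over single members, direction and call were unchanged in 534 of the fits with 1 library left out and in 381 of the other alternatives. Of the 29 calls of genes from the class II processing, promoter complex and Ciita regulator lists, 29 were lost with the dendritic cell covariate, 5 with only the compared groups fitted, 3 with the covariate of 3 B cell genes and at most 1 under each other alternative that kept all libraries. Few genes of any kind were called with the dendritic cell covariate. Besides the counts above, 9 rose and 1 fell for genotype under anti-CD40, and 29 and 5 for the difference of responses. The 5 calls lost with only the compared groups were for genotype under anti-CD40, where 494 of all genes tested rose and 241 fell.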
